A study of Mus musculus with 10 samples.

Results

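Cadherins and protocadherins were examined in 2 cultured mouse tumour lines, MC38.T4 (5 libraries) and its parent MC38 (5 libraries). All rows of the deposited table whose gene symbol is Cdh followed by a number, or Pcdh followed by letters or digits, were taken as members, which gave 93 of 54343 rows. MC38.T4 carries the genotype label Low mesothelin expression and MC38 the label Wild type. MC38 is a colon carcinoma line by the treatment description and the library names, and a melanoma by the tissue label. MC38.T4 descends from MC38 cells that carried a human mesothelin plasmid, were sorted as a clone, grew as a tumour in C57/BL6 mice, went back into culture and were cloned again from a cell with little mesothelin, so it is 1 clone. Both lines were grown in the same medium. Whether each library had its own culture is not stated in the labels, and p-values therefore reflect only how far these libraries spread, which may be technical. Values are FPKM, fragments scaled to gene length and to the mapped fragments of the library, which allows levels to be compared between genes.

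Cadherins are calcium-dependent adhesion proteins of the plasma membrane. Classical cadherins bind their like on the next cell and hold the actin cytoskeleton through catenins on the inner side of the membrane. E-cadherin (Cdh1) is the usual cadherin of epithelia and N-cadherin (Cdh2) that of neural and mesenchymal cells. Protocadherins are related proteins without the catenin-binding tail of classical cadherins. Some are encoded by solitary genes, among them the delta-1 and delta-2 families, and the others lie in the alpha, beta and gamma arrays, in which each variable exon has its own promoter.

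FPKM summed to between 442183 and 484460.5 per library. Relative depth, read from the spacing of low values with MC38 replicate 1 as 1, lay between 0.875 and 1.14, and read totals were not used. Across genes, log2 values of libraries of the same line correlated at 0.993 to 0.998 and those of different lines at 0.896 to 0.905. Defining markers of intestine and of melanocytes were low or absent. None of 7 intestinal genes entered the tested set and Cdx2 was listed at 0 in all libraries, while of 7 melanocyte genes only Mitf was tested (1.74 ± 0.096 FPKM in MC38.T4 and 0.781 ± 0.14 in MC38) and Tyr was listed at 0. Of 10 epithelial genes only Grhl2 was tested, at 0.0445 ± 0.0090 FPKM in MC38.T4 and 3.59 ± 0.30 in MC38 (SD, n = 5 each). In bulk RNA, fewer cells that express a gene and less RNA per cell cannot be told apart.

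Of the 93 members, 11 were on in at least 1 line, with a mean of at least 1 FPKM, where 20.8% of all rows of the table were. MC38.T4 had 9 members on and MC38 had 6, and 4 were on in both: Pcdhgc3, Pcdh18, Pcdh19 and Cdh2. Cdh26, Pcdh17, Pcdhb22, Cdh24 and Cdh1 were on only in MC38.T4 by this limit, 5 of 11 where 4.92% of all rows on in either line were. Pcdh9 and Pcdh7 were on only in MC38, 2 of 11 against 3.50%. Nearest the limit inside it lay Cdh1 at 1.00 ± 0.070 FPKM in MC38.T4 and Pcdh7 at 1.22 ± 0.12 in MC38, and outside it Pcdh7 at 0.704 ± 0.099 in MC38.T4 and Cdh24 at 0.744 ± 0.10 in MC38. Without MC38.T4 replicate 1 the mean of Cdh1 was 0.979 FPKM and without replicate 4 it was 0.99995, so 8 members were then on. Another 6 members were listed at 0 in all 10 libraries: Cdh6, Pcdh8, Pcdh20, Pcdh11x, Pcdhac2 and Pcdhb1. Summed FPKM of all members lay between 171.2 and 178.2 in MC38.T4 libraries and between 96.7 and 108.0 in MC38 libraries.

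**Figure D1:**
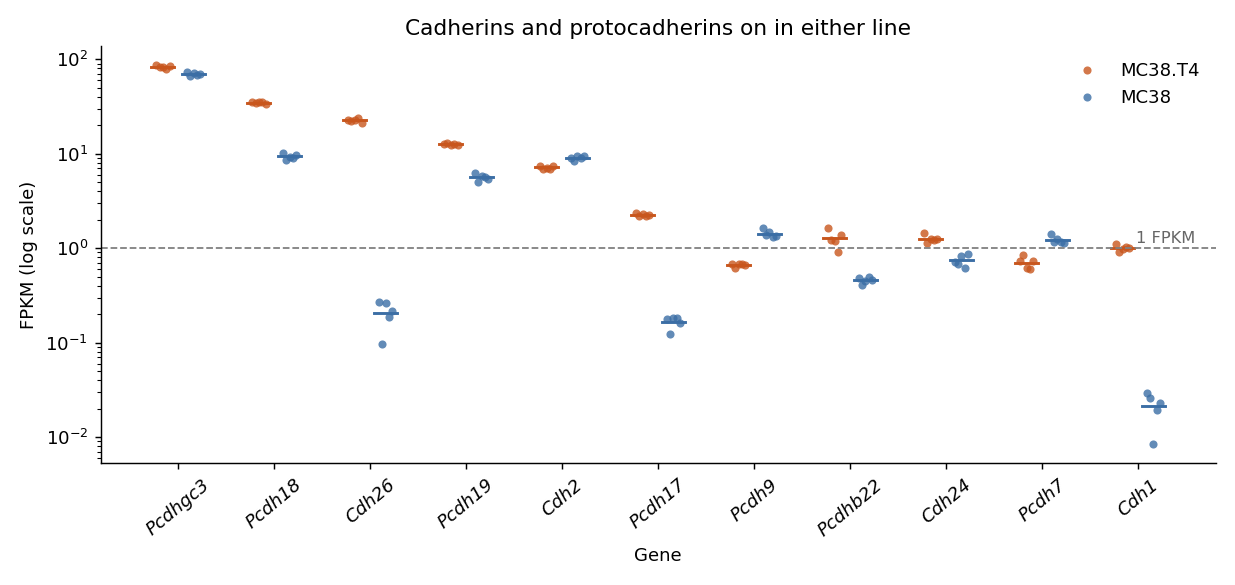
FPKM on a log axis for the 11 members on in either line, with 1 point per library, a bar at the mean, MC38.T4 in orange and MC38 in blue, and a dashed line at 1 FPKM. The groups did not overlap for any of the 11 genes. Of all rows not at 0 throughout, MC38.T4 lay wholly above for 21.4% and wholly below for 19.6%. These shares include rows under 1 FPKM in both lines, where they were only 8.80% and 5.35%. Rows on in either line thus lay apart more often than the shares over all rows. Among the 11, 5 were on only in MC38.T4 and 2 only in MC38, so a difference in means was built into their choice. Cdh26, Pcdh17 and Cdh1 lay below 0.3 FPKM in every MC38 library.

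Of the 93 members, 9 reached 1 FPKM in 5 or more libraries and entered the test, limma on log2(FPKM + 1) with Benjamini-Hochberg adjustment over all 11110 tested genes. All 9 passed at an adjusted p under 0.05, as did 86.0% of all tested genes. Of these, 6 rose (43.1% of all tested genes did) and 3 fell (42.9% did). A log2 change of at least 1 was found for 4 of the 9, Cdh26, Pcdh17, Pcdh18 and Pcdh19, all upward, against 17.2% of all tested genes. Cdh26, Pcdh17 and Cdh24 entered only through MC38.T4, and Pcdh9 and Pcdh7 only through MC38, so a difference was built into their entry. Over all 87 members not listed at 0 throughout, the libraries of MC38.T4 lay wholly above those of MC38 for 22 (21.4% of all such rows) and wholly below for 11 (19.6%). Fitted without the filter, 43 of the 87 were called (47.8% of all such rows), 28 of them higher (25.6%) and 15 lower (22.2%). Fold changes below are ratios of mean FPKM, and log2 changes (MC38.T4 minus MC38) use the log2(FPKM + 1) scale, which understates changes of low genes.

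Cdh26 showed the widest change. Its product is an atypical cadherin that in humans is known from airway and oesophageal epithelium in allergic inflammation. It stood at 22.7, 21.9, 23.0, 23.9 and 21.2 FPKM in MC38.T4 replicates 1 to 5, against 0.269, 0.0957, 0.260, 0.188 and 0.218 FPKM in MC38. Each MC38.T4 library thus held it as a well-expressed gene and no MC38 library reached 0.3 FPKM. The ratio of means was 109-fold, the log2 change 4.29 (SE 0.05, limma adjusted p = 9.3e-18), and the exact permutation p was 0.00794 (two-sided, n = 5 each), the smallest this test can give. That exact p is the same for every member below whose groups do not overlap. Of the 3 nearest tested genes on each side in RefSeq order on chromosome 2, 5 rose and 1 fell, where 43.1% of all tested genes rose and 42.9% fell. All 3 on the side before it, in RefSeq order, rose: Fam217b (9.56 ± 0.56 FPKM in MC38.T4 and 2.32 ± 0.20 in MC38), Ppp1r3d (1.95 ± 0.24 FPKM in MC38.T4 and 0.386 ± 0.078 in MC38) and Zfp931 (8.19 ± 0.53 FPKM in MC38.T4 and 3.75 ± 0.11 in MC38). Ppp1r3d entered the test only through MC38.T4, so its rise was built into its entry. On the other side the nearest, Taf4, fell (11.2 ± 0.36 FPKM in MC38.T4 and 17.2 ± 0.81 in MC38), while Lsm14b rose 1.32-fold and Psma7 1.13-fold.

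Among classical type I cadherins, N-cadherin fell while E-cadherin was higher in every MC38.T4 library. Cdh2 stood at 7.41, 6.95, 7.13, 6.95 and 7.32 FPKM in MC38.T4, against 9.08, 8.45, 9.45, 9.04 and 9.51 FPKM in MC38. The groups were close but did not overlap (ratio of means 0.785, log2 change -0.31, SE 0.04, limma adjusted p = 3.1e-06). Cdh1 stood at 1.10, 0.908, 0.984, 1.02 and 1.01 FPKM in MC38.T4, against 0.0293, 0.0259, 0.0084, 0.0193 and 0.0229 FPKM in MC38. Only 3 libraries reached 1 FPKM, so Cdh1 lay outside the tested set, and with no filter its adjusted p from limma was 4.28e-10 (log2 change 0.97, SE 0.03). Mean Cdh2 was 7.13 times mean Cdh1 in MC38.T4 and 430 times mean Cdh1 in MC38, so N-cadherin was the more abundant mRNA in both lines. P-cadherin (Cdh3), the neighbour of Cdh1 on chromosome 8, stayed at 0.0203 to 0.0468 FPKM in MC38.T4 and 0.0178 to 0.0821 in MC38. These are 3 to 7 fragments per library in MC38.T4 and 3 to 13 in MC38, as read from the spacing of low values. Of the 6 tested genes nearest to Cdh3 and Cdh1, 1 rose, 3 fell and 2 did not pass. R-cadherin (Cdh4) and M-cadherin (Cdh15) had means under 0.2 FPKM in both lines. The other epithelial markers went both ways. The keratin gene Krt8 lay wholly above MC38 in MC38.T4 (0.187 ± 0.045 FPKM in MC38.T4 and 0.0118 ± 0.013 in MC38), while Grhl2, Esrp1 (0.0241 ± 0.0092 FPKM in MC38.T4 and 0.584 ± 0.084 in MC38) and Krt19 lay wholly below, and the other 6 overlapped. The 10 markers summed to 0.234 to 0.439 FPKM in MC38.T4 libraries, against 4.05 to 4.60 FPKM in MC38 libraries, where Grhl2 was most of the sum.

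Transcription factors that repress Cdh1 went both ways. Of 8 tested genes of this list, 4 rose, 2 fell and 2 did not pass (median log2 change 0.27, against 0.00 over all tested genes). Over all tested genes 43.1% rose and 42.9% fell. Twist2 (33.5 ± 1.2 FPKM in MC38.T4 and 12.7 ± 1.0 in MC38) and Snai1 (18.9 ± 1.2 FPKM in MC38.T4 and 8.04 ± 0.43 in MC38) rose, while Snai2 (11.9 ± 0.94 FPKM in MC38.T4 and 27.5 ± 0.40 in MC38) and Zeb2 (14.9 ± 0.63 FPKM in MC38.T4 and 30.8 ± 3.1 in MC38) fell.

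Type II cadherins were low throughout, and 1 of 13 was on. Cdh24, which binds catenins like other classical cadherins, stood at 1.44, 1.15, 1.24, 1.21 and 1.24 FPKM in MC38.T4, against 0.714, 0.682, 0.830, 0.622 and 0.871 FPKM in MC38. The groups did not overlap (1.69-fold, log2 change 0.37, SE 0.05, limma adjusted p = 1.07e-05). Cdh19, known from Schwann cells, averaged 0.221 ± 0.029 FPKM in MC38.T4 and 0.108 ± 0.045 in MC38. Cdh5, the VE-cadherin of endothelium, was present as 5 to 9 fragments in each MC38.T4 library and 0 to 2 in each MC38 library. Another endothelial gene, Pecam1, averaged 0.529 ± 0.054 FPKM in MC38.T4 and 0.0404 ± 0.029 in MC38, while Kdr lay the other way without overlap (0.0010 ± 0.0022 FPKM in MC38.T4 and 0.0190 ± 0.0073 in MC38). Tek, Eng and Egfl7 overlapped between lines, and Cldn5 and Emcn were listed at 0 in all libraries. The summed level of the 7 endothelial markers was 4.89 to 5.71 FPKM in MC38.T4 and 3.19 to 4.90 in MC38, most of it Egfl7, and the part of such cells in the Cdh5 values was not tested.

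A run of neighbouring type II genes on chromosome 15, most of them known from brain, was detected in MC38 and close to 0 in MC38.T4. Cdh12 was listed at 0, 0.0161, 0, 0.0053 and 0.0156 FPKM in MC38.T4, against 0.732, 0.550, 0.604, 0.770 and 0.616 FPKM in MC38. Cdh9 was listed at 0 in all 5 MC38.T4 libraries, against 0.179, 0.105, 0.269, 0.0987 and 0.0963 FPKM in MC38. Cdh10 stood at 0 in 4 of the MC38.T4 libraries, with 0.0078 FPKM in replicate 3, against 0.0338 to 0.0877 FPKM in MC38. For these 3 genes the MC38.T4 libraries lay wholly below the MC38 libraries. Cdh18 overlapped, at 0.011, 0.0105, 0.127, 0.0108 and 0.0427 FPKM in MC38.T4, against 0.388, 0.115, 0.225, 0.354 and 0.219 FPKM in MC38. Without MC38.T4 replicate 3, its mean in MC38.T4 was 0.0187 FPKM, against 0.0403 with it. All 4 genes lie under the filter, and in the fit without it they were called lower (limma adjusted p between 2.98e-08 and 0.00242), as were 7.87% of all rows under 1 FPKM in both lines. The fifth cadherin of this run, Cdh6, was listed at 0 throughout. Of the 3 nearest tested genes on each side of the run, 5 fell and 1 rose, where 42.9% of all tested genes fell and 43.1% rose. Golph3 averaged 43.2 ± 2.4 FPKM in MC38.T4 and 104.2 ± 5.1 in MC38, and Zfp622 29.9 ± 1.1 in MC38.T4 and 77.4 ± 4.5 in MC38, while Myo10, next to Cdh18, rose (20.3 ± 1.3 FPKM in MC38.T4 and 14.7 ± 0.97 in MC38).

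**Figure D2:**
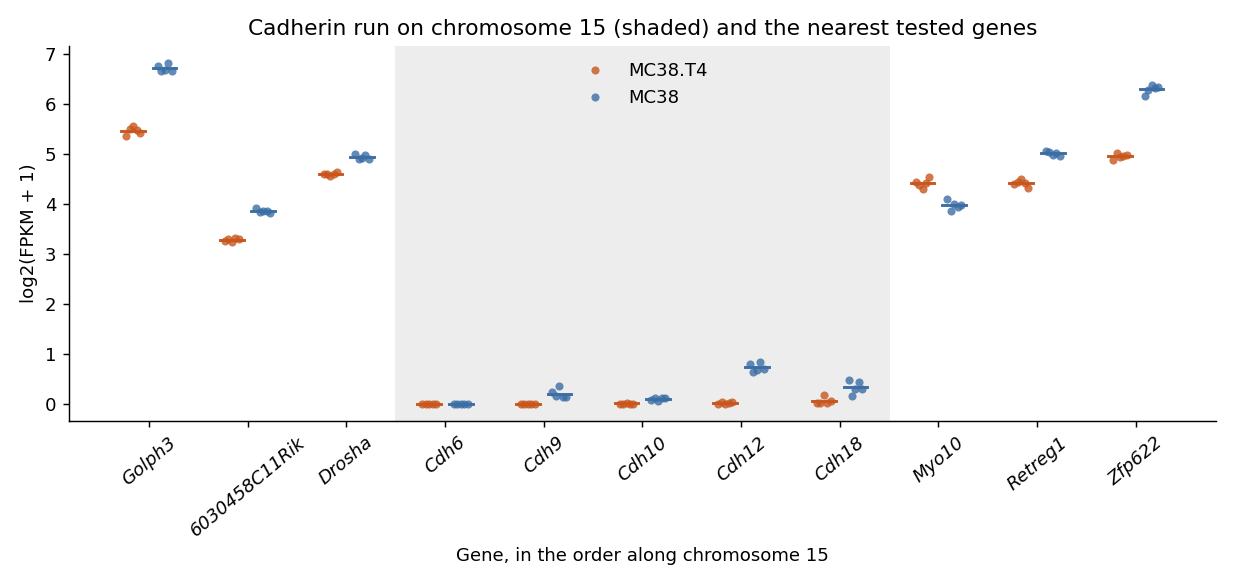
log2(FPKM + 1) of the 5 cadherin genes in a run on chromosome 15 (shaded) and of the 3 nearest tested genes on each side, in RefSeq gene order, with 1 point per library, a bar at the mean, MC38.T4 in orange and MC38 in blue. The cadherins of MC38.T4 sit at or near 0. Of the 6 flanking genes 5 are lower in MC38.T4, where 42.9% of all tested genes were called lower, and Myo10 is higher.

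Delta-2 protocadherins, which are best known from the developing nervous system, gave 3 of the 4 members that changed at least 2-fold on the log2(FPKM + 1) scale. Pcdh18 was the most abundant of them, at 35.0, 34.1, 35.0, 35.6 and 33.9 FPKM in MC38.T4, against 10.2, 8.65, 9.25, 9.03 and 9.67 FPKM in MC38. Every MC38.T4 library lay over 3 times above every MC38 library (3.71-fold in the means, log2 change 1.79, SE 0.04, limma adjusted p = 7.32e-15). Pcdh19, an X-linked gene mutated in a human epilepsy seen mainly in females, whose product can act together with N-cadherin, stood at 12.5, 13.1, 12.4, 12.5 and 12.3 FPKM in MC38.T4, against 6.30, 5.02, 5.76, 5.60 and 5.46 FPKM in MC38. The libraries of each line lay close together and apart from the other line (2.23-fold, log2 change 1.04, SE 0.05, limma adjusted p = 1.6e-11). Pcdh17 stood at 2.33, 2.17, 2.30, 2.17 and 2.23 FPKM in MC38.T4, against 0.177, 0.123, 0.180, 0.182 and 0.161 FPKM in MC38. It was on only in MC38.T4 (13.6-fold, log2 change 1.48, SE 0.04, limma adjusted p = 6.74e-14). Pcdh10 lay the other way and far lower, at 0.147 to 0.223 FPKM in MC38.T4 and 0.241 to 0.320 in MC38 (limma adjusted p = 0.0172 without the filter), and Pcdh8 was listed at 0. Of the 6 tested genes nearest to Pcdh18, 1 rose, 4 fell and 1 did not pass, and of the 6 nearest to Pcdh19, 2 rose, 2 fell and 2 did not pass. Dach2, among those that fell near Pcdh19, entered only through MC38, so its fall was built into its entry. Among the 8 tested genes between or nearest to Pcdh17 and Pcdh9 on chromosome 14, 3 rose, 4 fell and 1 did not pass. Over all tested genes 43.1% rose and 42.9% fell.

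Delta-1 protocadherins were the members on only in MC38. Pcdh9 stood at 0.676, 0.616, 0.677, 0.684 and 0.665 FPKM in MC38.T4, against 1.62, 1.38, 1.48, 1.30 and 1.34 FPKM in MC38. The MC38.T4 values were close to each other and all below MC38 (ratio of means 0.466, log2 change -0.54, SE 0.05, limma adjusted p = 3.17e-08). Pcdh9 lies beyond Pcdh17 and Pcdh20 on chromosome 14, with the tested genes Diaph3 and Tdrd3 between Pcdh17 and Pcdh9. Thus 2 solitary protocadherins of the same chromosome went opposite ways. Pcdh7, which in humans binds the phosphatase inhibitor SET, stood at 0.728, 0.843, 0.620, 0.598 and 0.730 FPKM in MC38.T4, against 1.42, 1.15, 1.23, 1.17 and 1.12 FPKM in MC38 (ratio of means 0.577, log2 change -0.38, SE 0.05, limma adjusted p = 8.59e-06). All 6 of its nearest tested neighbours on chromosome 5 fell, where 42.9% of all tested genes did. Dthd1, among the 6, entered the test only through MC38 (0.193 ± 0.088 FPKM in MC38.T4 and 3.33 ± 0.38 in MC38), so its fall was built into its entry. Pcdh1 was near 0, at 0.0344 to 0.0751 FPKM in MC38.T4 and 0.0069 to 0.0282 in MC38, without overlap (limma adjusted p = 0.00302 without the filter), and Pcdh11x was listed at 0.

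Promoter sequences of members that moved most are shown because the 3 delta-2 genes that rose share a short stretch in front of their start. The 250 bases before the annotated start are given from RefSeq (GRCm38.p6), with CCAAT and its reverse complement ATTGG in capitals. The submitters name GRCm39 as their build, so these coordinates belong to the RefSeq table and not to the files. Pcdh9 has 2 entries, of which the first is shown.
Pcdh17, chr14:84443313-84443562, + strand: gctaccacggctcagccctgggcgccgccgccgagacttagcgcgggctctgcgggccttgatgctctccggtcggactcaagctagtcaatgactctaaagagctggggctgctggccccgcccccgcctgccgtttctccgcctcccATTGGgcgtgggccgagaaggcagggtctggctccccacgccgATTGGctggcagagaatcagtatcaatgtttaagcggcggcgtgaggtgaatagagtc
Pcdh18, chr3:49757317-49757566, - strand: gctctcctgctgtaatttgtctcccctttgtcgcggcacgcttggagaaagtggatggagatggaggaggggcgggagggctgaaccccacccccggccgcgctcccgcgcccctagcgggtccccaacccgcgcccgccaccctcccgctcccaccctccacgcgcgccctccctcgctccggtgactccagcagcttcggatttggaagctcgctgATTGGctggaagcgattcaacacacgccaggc
Pcdh19, chrX:133688994-133689243, - strand: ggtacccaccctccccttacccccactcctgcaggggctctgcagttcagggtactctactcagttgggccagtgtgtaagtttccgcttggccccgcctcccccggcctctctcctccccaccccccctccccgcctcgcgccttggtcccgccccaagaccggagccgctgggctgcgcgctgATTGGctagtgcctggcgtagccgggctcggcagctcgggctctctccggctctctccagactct
Pcdh9, chr14:93890680-93890929, - strand: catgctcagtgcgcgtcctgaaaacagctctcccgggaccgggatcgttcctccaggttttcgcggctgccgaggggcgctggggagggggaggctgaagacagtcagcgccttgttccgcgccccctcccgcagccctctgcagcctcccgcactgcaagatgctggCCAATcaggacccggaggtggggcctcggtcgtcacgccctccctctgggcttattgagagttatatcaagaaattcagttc
Cdh26, chr2:178430265-178430514, + strand: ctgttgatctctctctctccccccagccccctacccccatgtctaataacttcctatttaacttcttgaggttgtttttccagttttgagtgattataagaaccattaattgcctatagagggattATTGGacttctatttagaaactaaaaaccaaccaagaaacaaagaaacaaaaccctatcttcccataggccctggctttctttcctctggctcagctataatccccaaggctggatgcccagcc
Entries were found for 7 of the 11 genes on in either line, and Cdh1 is among those without an entry. CCAAT occurred on either strand in 5 of the 7, where 33.8% of all 32851 promoters of this length held it. GATTGGCT, read on either strand and containing ATTGG, was found in Pcdh17, Pcdh18 and Pcdh19 and in none of the other 4, where 3.62% of all promoters held it. The ATTGG within it began 58 bases before the start in Pcdh17, 32 in Pcdh18 and 65 in Pcdh19. This motif was picked after the sequences were seen, and a match is a description of letters. Promoters of the other delta-2 genes, Pcdh10 and Pcdh8, which were not on in either line, were not examined. Cdh26 stood apart in composition, with 0 CpG in 250 bases and 42.8% G and C, where Pcdh17 had 21 CpG, Pcdh18 had 23 and Pcdh19 had 16. The median over all promoters was 6 CpG. Neither CAGGTG, a sequence bound by SNAI and ZEB repressors (either strand, in 17.2% of all promoters), nor TATAAA (either strand, 12.4%) occurred in the 7.

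**Figure D3:**
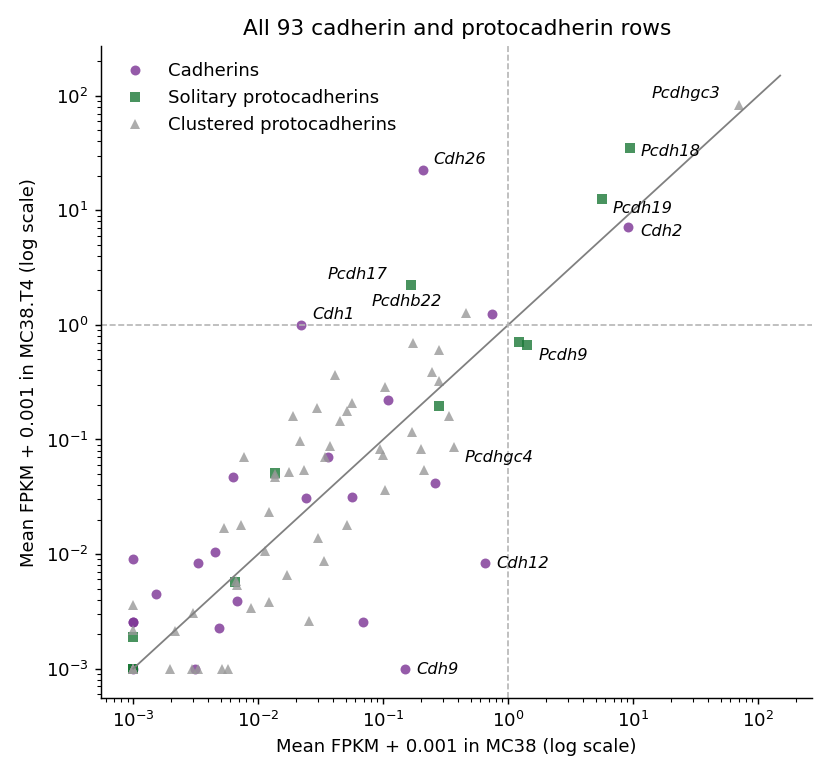
Mean FPKM of each of the 93 members in MC38.T4 (vertical) and MC38 (horizontal), on log axes with 0.001 added so that rows at 0 can be drawn, with dashed lines at 1 FPKM and a line of equal levels. Cdh26, Pcdh17 and Cdh1 stand far above the line of equal levels, Cdh12 and Cdh9 far below it, and Pcdhgc3 lies at the top right close to the line.

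Clustered protocadherins made up 58 of the 93 members, and 1 of them was abundant. Pcdhgc3, a C-type gene of the gamma array, stood at 87.1, 82.7, 82.3, 79.5 and 84.2 FPKM in MC38.T4, against 72.5, 66.7, 71.9, 68.0 and 69.0 FPKM in MC38. Its groups did not overlap, though the difference was small (1.19-fold, log2 change 0.25, SE 0.03, limma adjusted p = 6.53e-06). It took 48.1% ± 1.0 of summed member FPKM in MC38.T4 and 67.7% ± 0.88 in MC38. Alpha genes share 3′ exons with each other, as gamma genes do, and beta genes resemble each other in sequence, so their values depend on how the authors divided shared reads, which the sources used here do not state. Values above 0 but under 0.0001 FPKM, less than any single-fragment step found, occurred 14 times among members, all 14 in the alpha and gamma arrays. None of 20 gamma rows under 1 FPKM came as whole multiples of a fragment, within a tolerance of 0.05, while 16 of 34 such rows outside the alpha and gamma arrays did.

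The alpha array was near 0, and the beta array differed in direction along its length. The 14 alpha rows summed to 0 to 0.0177 FPKM in MC38.T4 libraries and 0.0049 to 0.0402 in MC38 libraries. In the beta array, the means of 16 of 17 genes from Pcdhb2 to Pcdhb18 were lower in MC38.T4, and the means of all 4 genes from Pcdhb19 to Pcdhb22, which lie nearest the gamma array, were higher. The beta array was divided at this point after its values were seen. Summed FPKM of the first stretch was 0.431 to 0.677 in MC38.T4 and 1.22 to 1.38 in MC38, and of the second 1.62 to 2.53 in MC38.T4 and 0.820 to 1.16 in MC38. After rescaling to TPM or to equal medians these counts of directions were the same, and after quantile normalization they were 17 of 17 lower and 3 of 4 higher. In the fit without a filter, 7 genes of the first stretch were called lower and none higher, where 7.87% of all rows under 1 FPKM in both lines were called lower and 13.3% higher. Of the second stretch, which holds Pcdhb22 above 1 FPKM, 3 were called higher and none lower, where 25.6% of all rows not at 0 throughout were called higher and 22.2% lower.

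Pcdhb22, the last gene of the beta array, stood at 1.64, 1.22, 1.20, 0.904 and 1.38 FPKM in MC38.T4, against 0.481, 0.403, 0.449, 0.491 and 0.458 FPKM in MC38. All MC38.T4 libraries lay above all MC38 libraries, with a wider spread in MC38.T4 (2.78-fold). Only 4 libraries reached 1 FPKM, so it was outside the tested set, and without the filter its log2 change was 0.63 (SE 0.07, limma adjusted p = 2.05e-05). Pcdhb21 averaged 0.387 ± 0.059 FPKM in MC38.T4 and 0.247 ± 0.066 in MC38, and Pcdhb20 0.321 ± 0.046 in MC38.T4 and 0.279 ± 0.033 in MC38, with overlap in both. Pcdhb15 lay the other way, at 4 to 7 fragments per MC38.T4 library and 18 to 31 per MC38 library (0.0531 ± 0.020 FPKM in MC38.T4 and 0.210 ± 0.044 in MC38). Pcdhb17 averaged 0.158 ± 0.037 FPKM in MC38.T4 and 0.333 ± 0.12 in MC38, and its groups overlapped.

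In the gamma array, 18 of the 19 A- and B-type rows had a higher mean in MC38.T4, Pcdhga6 being the exception in FPKM, and the count was 18 under the other 3 scalings as well. Their summed FPKM was 3.27, 3.29, 3.11, 3.70 and 3.26 in MC38.T4 libraries, against 1.12, 0.833, 0.991, 0.941 and 1.08 in MC38 libraries (3.35-fold in the means). The sums of the lines lay far apart, with MC38.T4 replicate 4 the highest. The MC38.T4 libraries lay wholly above the MC38 libraries for 11 of the 19 rows, as for 8.80% of all rows under 1 FPKM in both lines, and wholly below for none, against 5.35%. Without a filter 14 of the 19 were called higher, as were 13.3% of all rows under 1 FPKM in both lines, and none lower, against 7.87%. Pcdhgb7 led this group, at 0.784, 0.634, 0.605, 0.749 and 0.692 FPKM in MC38.T4, against 0.241, 0.0636, 0.137, 0.248 and 0.165 FPKM in MC38. Pcdhgb2 averaged 0.605 ± 0.082 FPKM in MC38.T4 and 0.277 ± 0.055 in MC38, Pcdhgb6 0.366 ± 0.071 FPKM in MC38.T4 and 0.0404 ± 0.032 in MC38, and Pcdhga4 0.208 ± 0.042 FPKM in MC38.T4 and 0.0555 ± 0.039 in MC38. Pcdhgb8, which RefSeq lists as a transcribed pseudogene, averaged 0.285 ± 0.048 FPKM in MC38.T4 and 0.103 ± 0.055 in MC38. The C-type gene Pcdhgc4 averaged 0.0843 ± 0.044 FPKM in MC38.T4 and 0.367 ± 0.52 in MC38, where replicate 5 held 1.28 FPKM, and its MC38 mean without that library was 0.138 FPKM.

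**Figure D4:**
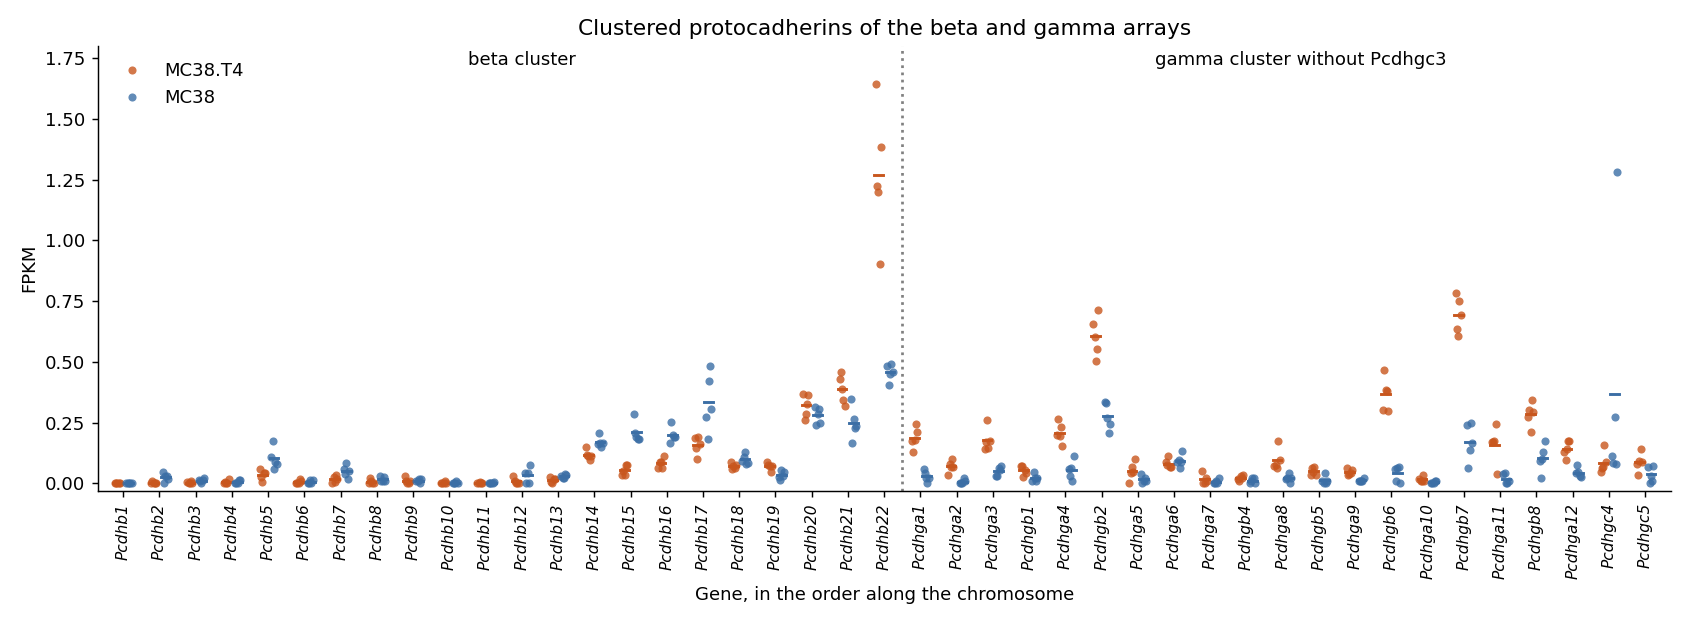
FPKM of the beta and gamma arrays without Pcdhgc3, gene by gene in the order along the chromosome, with 1 point per library, a bar at the mean, MC38.T4 in orange and MC38 in blue. By mean FPKM, MC38.T4 lies below MC38 for most beta genes up to Pcdhb18 and above it from Pcdhb19 (3 of 4 genes there after quantile normalization) through most of the gamma array, and 1 MC38 library stands out at Pcdhgc4.

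Genes that control the clustered arrays went both ways. The insulator protein CTCF and the cohesin ring link array promoters to distant enhancers, and SMCHD1, SETDB1 and DNA methyltransferases are known to hold array genes silent. Of 14 tested genes of this list, 6 rose, 6 fell and 2 did not pass (median log2 change -0.01). This split is close to that of all tested genes, of which 43.1% rose and 42.9% fell. Smchd1 is among the 6 that fell, and its call (limma adjusted p = 0.0382) was lost under 11 of 19 alternatives. The cohesin ring genes Smc1a (31.3 ± 1.6 FPKM in MC38.T4 and 16.7 ± 0.60 in MC38) and Rad21 (143.7 ± 5.8 FPKM in MC38.T4 and 90.5 ± 4.1 in MC38) rose. The cohesin loader gene Nipbl (14.8 ± 0.24 FPKM in MC38.T4 and 31.5 ± 3.1 in MC38) and the cohesin subunit gene Stag2 (22.8 ± 1.0 FPKM in MC38.T4 and 30.9 ± 2.9 in MC38) fell.

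Genes that link cadherins to the cytoskeleton went both ways. Of 22 catenin and linker genes 14 were tested, of which 9 rose (43.1% of all tested genes did), 4 fell (42.9% did) and 1 did not pass, with a median log2 change of 0.27, and no test of the list against other genes was made. Pkp3, among the 9, entered only through MC38.T4, so its rise was built into its entry. Ctnnal1, an alpha-catenin-like gene, averaged 27.2 ± 1.7 FPKM in MC38.T4 and 4.32 ± 0.26 in MC38. Vcl, the vinculin gene, averaged 71.1 ± 3.4 FPKM in MC38.T4 and 28.0 ± 1.6 in MC38. The core catenins, named here after their values were seen, differed little: Ctnnb1 rose (84.0 ± 1.0 FPKM in MC38.T4 and 67.7 ± 1.8 in MC38), Ctnnd1 rose (27.9 ± 0.52 FPKM in MC38.T4 and 22.9 ± 0.52 in MC38), and Ctnna1 stood at 99.9 ± 2.9 FPKM in MC38.T4 and 101.3 ± 2.6 in MC38 (log2 difference -0.02, SE 0.03, limma adjusted p = 0.564). Among the 4 that fell were genes of nectins, immunoglobulin-like adhesion proteins of the same junctions: Nectin2 (9.11 ± 0.85 FPKM in MC38.T4 and 34.5 ± 0.51 in MC38) and Nectin3 (14.0 ± 0.51 FPKM in MC38.T4 and 27.6 ± 1.3 in MC38).

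**Figure D5:**
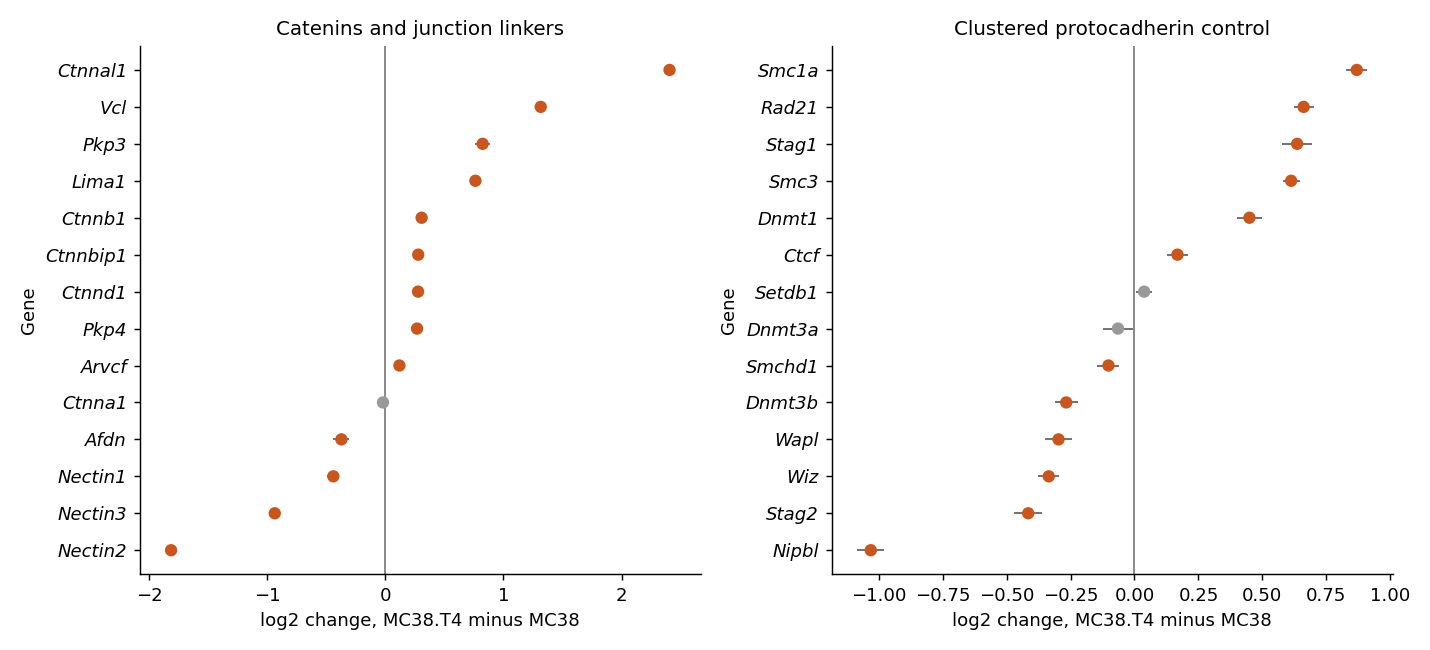
log2 change, MC38.T4 minus MC38, with its standard error, for the tested catenin and linker genes (left) and the tested genes that control the clustered protocadherin arrays (right), in orange where the limma adjusted p was under 0.05 and grey where it was not. Ctnnal1 and Vcl stand farthest right in the first panel and Nectin2 farthest left, and in the second panel Smc1a and Nipbl mark the ends.

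Other cadherin superfamily genes and the enzymes that cut cadherins were also followed. Of 27 other superfamily genes (FAT, DCHS, CELSR, CDHR, calsyntenin and desmosomal cadherins and Ret), 24 were below the filter. The 3 tested all fell, where 42.9% of all tested genes did. Clstn1 averaged 58.8 ± 1.5 FPKM in MC38.T4 and 79.8 ± 3.3 in MC38, and Clstn3 6.86 ± 0.62 in MC38.T4 and 11.1 ± 0.87 in MC38. The third, Fat1, overlapped between lines (5.03 ± 0.72 FPKM in MC38.T4 and 5.88 ± 0.71 in MC38, limma adjusted p = 0.046), and over the alternatives its adjusted p lay between 0.00457 and 0.122. Of 8 tested genes for the metalloproteases and the gamma-secretase complex that cut cadherins, 3 rose (43.1% of all tested genes did), 4 fell (42.9% did) and 1 did not pass (median log2 change -0.26). Adam15 (50.3 ± 0.76 FPKM in MC38.T4 and 30.7 ± 0.88 in MC38) and Ncstn (41.7 ± 0.82 FPKM in MC38.T4 and 28.3 ± 1.0 in MC38) rose, while Psen2 (5.18 ± 0.57 FPKM in MC38.T4 and 8.60 ± 0.37 in MC38) fell.

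Fibroblast and pericyte markers moved with the line as well. All 6 tested genes of 9 rose, where 43.1% of all tested genes did. Among them Col1a2, Pdgfrb and Acta2 entered only through MC38.T4, so a rise was built into their entry. The list, mostly Col3a1 in MC38.T4 (247.4 ± 3.0 FPKM in MC38.T4 and 6.44 ± 0.51 in MC38), summed to 352.0 to 358.4 FPKM in MC38.T4 libraries, against 34.8 to 37.9 FPKM in MC38 libraries. Neural markers, of which 2 of 8 were tested, summed to 31.6 to 35.5 FPKM in MC38.T4, against 16.3 to 18.3 FPKM in MC38, with Snap25 listed at 0. Leukocyte markers summed to 1.96 to 3.30 FPKM in MC38.T4 and 3.55 to 4.45 in MC38, with Cd3e and Adgre1 listed at 0. The part of other cells in the cadherin and protocadherin values was not tested.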

How the data were processed

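RNA was sequenced from 5 MC38.T4 and 5 MC38 libraries made with a stranded poly(A) kit, per the labels' protocols. The authors deposited 1 table of FPKM values for all 10 libraries. GRCm39 and DESeq2 are named in the submitters' processing notes, while the aligner, the counter, the annotation and the handling of strand and shared reads were not given in the sources used here. Shared reads, overlapping genes and the length scaling can therefore move values of clustered genes.

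The deposited FPKM values were used as they stand. Genes with at least 1 FPKM in at least 5 libraries were tested with limma 3.58.1 in R 4.3.3 on log2(FPKM + 1), with trended and robust variance, line as the only term, and Benjamini-Hochberg adjustment (threshold 0.05). A two-sided exact permutation test over 252 assignments of the libraries was added for single members. The fit was tested on simulated data. Other steps ran in Python 3.11.15 with SciPy 1.17.1, pandas 2.3.3 and NumPy 2.4.6, and figures were drawn with matplotlib 3.10.9. All 93 members matched the RefSeq table (GRCm38.p6), which was used for names, gene order and promoters.

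The members, gene lists and tests were chosen with earlier results of these data known. Members at 1 FPKM or more in either line are given by library, and those at 0.2 or more by group means. Of each list, the 2 largest rises and 2 largest falls among called genes with a mean of at least 1 FPKM in either line are named, except 1 gene that is not reported here. Alternatives were TPM, equal medians, quantile normalization, a pseudocount of 0.1, other filters, plain variance moderation, a replicate term and leaving out libraries. Replicate numbers did not pair the libraries: the labels give no shared batch or day, and same-numbered libraries correlated at -0.13 to 0.14.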

Additional observations from a re-analysis of the deposited data

Results flagged for a closer look

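Of 50 checks, each for 1 named member in 1 line, 4 found a library far from the other 4, where chance marks about 1 in 20. Pcdh9 was lowest in MC38.T4 replicate 2, at 0.616 FPKM against 0.665 FPKM in the next library. Cdh18 was highest in MC38.T4 replicate 3, at 0.127 FPKM against 0.0427 FPKM in the next. Pcdhb15 was highest in MC38 replicate 1, at 0.287 FPKM against 0.2075 FPKM in the next. Pcdhgc4 was highest in MC38 replicate 5, at 1.28 FPKM against 0.2745 FPKM in the next.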

How the results depend on the processing

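The 9 tested members kept their direction and an adjusted p under 0.05 in all 167 recomputed values, Cdh24, Pcdh17, Pcdh7 and Pcdh9 not being fitted with a minimum of 5 FPKM, with a highest limma adjusted p of 0.00173. Counts moved mainly with the filter: without it 28 members were higher and 15 lower, with a minimum of 5 FPKM 1 was lower, and 4 other cadherin superfamily genes were higher without it, the larger or smaller number of genes tested being part of each setting. Leaving out 1 library gave 9408 to 9624 called genes, 6 members higher, 3 lower, 8 to 9 members on in MC38.T4 and 6 on in MC38. With an on limit of 0.5 FPKM, 13 members were on in MC38.T4 and 8 in MC38, and with 2 FPKM 6 in MC38.T4 and 4 in MC38. A limit of 1 TPM gave 13 in MC38.T4 and 8 in MC38. Over all alternatives 7683 to 12725 genes were called. The log2 change of Cdh26 lay between 4.25 and 6.24, of Pcdh17 between 1.39 and 3.15 and of Cdh24 between 0.22 and 0.69, each highest with the pseudocount of 0.1. With a replicate block 9534 genes were called, with 6 members higher and 3 lower, and no library correlated best with its own number. The list counts, the values of other named genes and the means of Cdh1, Cdh18 and Pcdhgc4 without single libraries were added after seeing the data. Depth limits members near 0: several beta genes rest on 0 to 5 fragments per library, where small differences between lines may not be detectable.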

Other observations

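Cdh17, the liver-intestine cadherin, averaged 0.0695 FPKM in MC38.T4 and 0.0349 in MC38, and its libraries overlapped (exact permutation p = 0.0238, two-sided, n = 5 each, limma adjusted p = 0.0299 without the filter). The desmosomal cadherin gene Dsc1, below the filter, averaged 0.00936 FPKM in MC38.T4 and 0.443 in MC38. Cdh11, known from mesenchymal cells, rested on 2 to 10 fragments per library in MC38.T4 and 1 to 8 in MC38, while the fibroblast and pericyte list summed to 352.0 to 358.4 FPKM in MC38.T4 and 34.8 to 37.9 in MC38.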
